A study of Mus musculus with 6 samples.

Results

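Genes of the cell polarity complexes were examined in RNA-Seq data from mouse sciatic nerve. Members were the 10 genes listed under the symbols Pard3, Pard6a, Pard6b, Prkci, Mpp5, Mpdz, Crb3, Dlg1, Scrib and Llgl1, of 24015 genes in the count tables, and all 10 were found. The 6 libraries comprised 3 from control mice (Rnf40 fl/fl, with no Cre) and 3 from Rnf40ΔSC mice (Dhh::Cre, Rnf40 fl/fl), all at postnatal day 14. The sample labels give a mixed 129SvJ/C57Bl/6J background, whereas the methods of the study name C3H in place of 129SvJ, and both sources treat the genotypes alike. Each library was made from pooled nerves and therefore holds RNA of the whole tissue, while Dhh::Cre acts in the Schwann cell lineage. Control mice carry the floxed alleles but not the transgene, so an effect of Cre itself cannot be told apart from that of the deletion. The labels call the libraries biological replicates but do not name the animals, and p-values measure the spread between these pools.

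Cell polarity rests on protein complexes that occupy different parts of the cell cortex. The PAR complex joins the scaffolds PAR3 and PAR6 to atypical protein kinase C, the Crumbs complex joins the membrane protein Crumbs to PALS1 and to PATJ or MUPP1, and the Scribble complex is made of Scribble, DLG and LGL proteins. In myelinating Schwann cells, which wrap axons along a radial and a longitudinal axis, proteins of these complexes have been located to distinct membrane domains.

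The control libraries, replicates 1 to 3, held 1317167, 1992622 and 2468765 counts. The Rnf40ΔSC libraries, in the same order as in all that follows, held 2184268, 1459387 and 2186710. Levels are given as CPM, counts for each 1000000 of the library total after scaling by TMM (edgeR's correction for differences in library composition), and 1 read stood for 0.414 to 0.823 CPM. The 10 members together held 0.0608%, 0.0598% and 0.0603% of the counts in control and 0.0679%, 0.0623% and 0.0686% in Rnf40ΔSC libraries, and no member had more than 383 reads in a library. At this depth a difference had to be large, relative to the spread of pools, to be seen in the least abundant members.

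The deleted gene, Rnf40 (chr7:134732212-134747119, plus strand, mm9), had 67.5, 65.5 and 73.6 CPM in control and 46.8, 46.9 and 48.8 CPM in Rnf40ΔSC libraries. Every Rnf40ΔSC library lay below every control library, so no library went against its label. The log2 fold change was -0.54 (SE 0.14, adjusted p = 0.00242, quasi-likelihood test of edgeR, Benjamini-Hochberg adjusted). With total counts in place of TMM it was -0.27 and did not pass (adjusted p = 0.12 with edgeR, over a range of 0.00235 to 0.12 under the alternatives).

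Of the 10 members, 8 had enough reads to be tested. Calls were made where edgeR's adjusted p, over the 11371 genes tested, did not exceed 0.05. By this rule Mpp5 was higher in Rnf40ΔSC nerves, Prkci and Llgl1 were lower, and 5 members did not pass. Among all genes tested, 15.4% were called higher and 16.2% lower, so that 3 of 8 members called is close to the share of all genes, 31.6%, and is no result about polarity genes as a group. The median log2 fold change of the 8 members was -0.084, against -0.0026 for all genes tested. The study also set limits on size, a log2 fold change no smaller than 0.8 and a base mean, the average normalized count, no lower than 20. With the adjusted p used here, 0 of the 8 members passed these limits by edgeR, and 0 by DESeq2, against 8.64% of the genes tested. Their edgeR log2 fold changes lay between -0.45 and 0.39, so the count is 0 at an unadjusted p too. The groups did not overlap for 3 of the 8 members, with Rnf40ΔSC above control for Mpp5 and below for Prkci and Llgl1. Among all genes tested, Rnf40ΔSC lay wholly above control for 22.0% and wholly below for 21.6%.

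Scaling bears on the size of each of these differences and on which of them are called. With total counts in place of TMM the median of all genes moved by 0.27 on the log2 scale, and calls over all genes went from 1756 higher and 1841 lower to 3766 higher and 880 lower. For the members this gave 2 called higher, Pard3 and Mpp5, and 0 called lower. Prkci (-0.18), Llgl1 (-0.15) and Mpp5 (0.66) kept their direction, whereas Scrib and Mpdz, which were not called, went from below 0 to above it. Fold changes are therefore relative to the bulk of genes. From the RNA of a whole nerve alone, fewer cells of a type and less RNA per cell cannot be told apart.

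**Figure D1:**
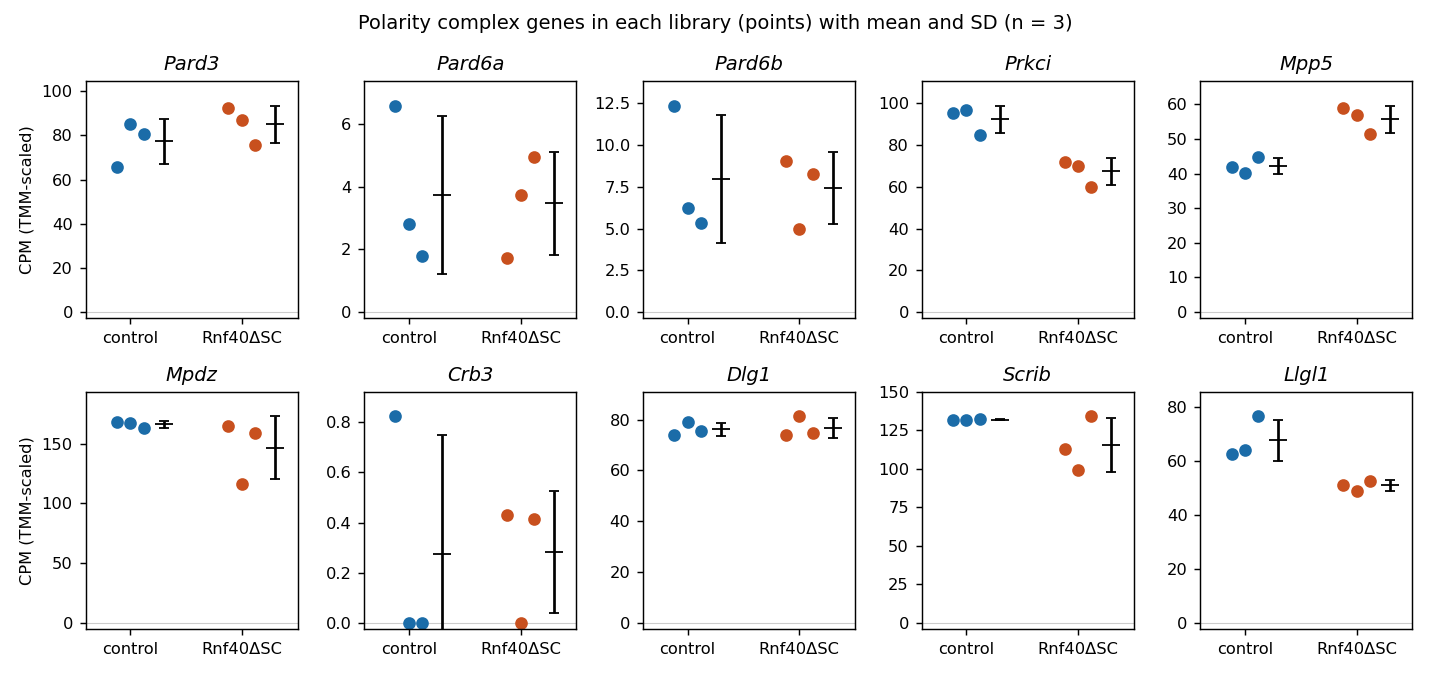
Level of each of the 10 members (y axis, CPM after TMM scaling) in the 3 control and 3 Rnf40ΔSC libraries. Points are libraries, and the bar beside them is the mean with its SD (n = 3; the lower bar of Crb3 is cut at the axis). For Prkci and Llgl1 the Rnf40ΔSC points lie below and for Mpp5 above all control points.

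Among the genes of the PAR complex, the kinase gene Prkci differed between genotypes. Prkci encodes the iota form of atypical protein kinase C, the catalytic subunit of the complex, and lies at chr3:30894669-30951663 on the plus strand of mm9. It had 95.5, 96.6 and 84.8 CPM in control and 72.1, 70.0 and 60.0 CPM in Rnf40ΔSC replicates 1, 2 and 3. All 3 Rnf40ΔSC libraries were below the lowest control library, replicate 3. The mean fell from 92.3 ± 6.52 (SD, n = 3) to 67.4 ± 6.48 CPM (SD, n = 3), a log2 fold change of -0.45 (95% interval -0.70 to -0.20, SE 0.12, adjusted p = 0.00488 by edgeR). Of the tested genes, 35.4% had a larger absolute log2 fold change. The call held in 13 of 14 alternatives and was lost with total-count scaling (log2 fold change -0.18, adjusted p = 0.25 with edgeR, over a range of 0.00403 to 0.25).

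Pard3 encodes the scaffold that anchors the PAR complex at the membrane (chr8:129587793-130136186, plus strand). It had 65.9, 85.3 and 80.8 CPM in control and 92.3, 86.9 and 75.7 CPM in Rnf40ΔSC libraries. The groups overlapped, since Rnf40ΔSC replicate 3 lay below control replicates 2 and 3. The log2 fold change was 0.12 (95% interval -0.14 to 0.37, adjusted p = 0.51 by edgeR). It was 0.030 without control replicate 1, the lowest library, and 0.21 without Rnf40ΔSC replicate 3, and it turned to -0.047 with Rnf40ΔSC replicates 1 and 2 left out together. With total-count scaling Pard3 was called higher, at 0.39 (adjusted p = 0.0125 with edgeR, over a range of 0.0125 to 0.90).

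Pard6a and Pard6b encode PAR6 proteins, the adaptors that bind the kinase. Pard6a (chr8:108225054-108227393, plus strand) had between 4 and 12 reads in each library, 39 in all, and did not pass the filter on low counts. Pard6b (chr2:167906504-167926703, plus strand) had between 8 and 21 reads in each library, and was tested. Its levels of 12.4, 6.22 and 5.36 CPM in control and 9.02, 5.0 and 8.28 CPM in Rnf40ΔSC libraries overlapped. The 95% interval of the log2 fold change, -0.72 to 0.79, shows how little this depth can resolve for the gene.

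The Crumbs complex was represented by 3 members. Mpp5, which encodes the scaffold PALS1 between Crumbs and the multi-PDZ proteins, lies at chr12:79849934-79941698 on the plus strand. It had 42.0, 40.1 and 44.6 CPM in control and 58.8, 56.9 and 51.3 CPM in Rnf40ΔSC libraries. Every Rnf40ΔSC library was above every control library. The mean was 42.2 ± 2.27 CPM (SD, n = 3) in control and 55.7 ± 3.90 CPM (SD, n = 3) in Rnf40ΔSC nerves, a log2 fold change of 0.39 (95% interval 0.088 to 0.69, SE 0.15, adjusted p = 0.0424 by edgeR). This call lay near the threshold and was lost in 10 of 14 alternatives, with adjusted p between 0.000573 and 0.36. It was lost with DESeq2 (log2 fold change 0.40, adjusted p = 0.14) and when control replicate 1, 2 or 3 or Rnf40ΔSC replicate 1 or 2 was left out (0.35 to 0.44). The call held with total-count scaling, where the log2 fold change was 0.66.

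Mpdz encodes MUPP1, a multi-PDZ scaffold that binds PALS1 (chr4:80924404-81088719, minus strand). It was the member with the most reads, and had 168, 167 and 163 CPM in control and 164, 116 and 158 CPM in Rnf40ΔSC libraries. Rnf40ΔSC replicate 2 stood below the other libraries, and the groups overlapped. The log2 fold change was -0.17 (95% interval -0.39 to 0.053, adjusted p = 0.25 by edgeR), and it was 0.098 with total-count scaling. Without Rnf40ΔSC replicate 2 it was -0.035.

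Crb3 encodes a small Crumbs protein known from epithelia (chr17:57198528-57205341, plus strand). It had 1 read in control replicate 1, 1 in Rnf40ΔSC replicate 1 and 1 in Rnf40ΔSC replicate 3, and 0 in the other libraries. Both groups were within the 3 reads taken as the limit of detection, which correspond to 1.24 to 2.47 CPM, so no fold change is given. These limits cover counting error alone. Its paralogs Crb1 and Crb2 had at most 4 reads in a library, so that the Crumbs genes were not detectable, or barely so, at this depth. The 5 epithelial markers Epcam, Krt5, Krt8, Krt14 and Krt18 summed to 0.823, 1.13 and 2.23 CPM in control and 0.429, 0.625 and 1.66 CPM in Rnf40ΔSC libraries. All 5 were within 3 reads in each library, too few to rank them, and Krt8 had 0 reads in all 6 libraries.

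Of the Scribble complex, Llgl1 was called and Scrib and Dlg1 were not. Llgl1 encodes a LGL protein, a substrate of atypical protein kinase C, and lies at chr11:60513225-60527688 on the plus strand. It had 62.6, 63.8 and 76.3 CPM in control and 51.1, 48.8 and 52.6 CPM in Rnf40ΔSC libraries. The groups did not overlap, and control replicate 3 stood above the other control libraries. The mean fell from 67.6 ± 7.60 (SD, n = 3) to 50.8 ± 1.92 CPM (SD, n = 3), a log2 fold change of -0.42 (95% interval -0.70 to -0.14, SE 0.14, adjusted p = 0.0185 by edgeR). The call was lost in 6 of 14 alternatives, among them total-count scaling (-0.15), DESeq2 (-0.41) and the fits without control replicate 3 (-0.31) or Rnf40ΔSC replicate 1 (-0.41). Adjusted p ran from 0.0188 to 0.41 under the alternatives. Exons of Llgl1 overlap those of Flii on the opposite strand over 64 bases, or 1.32% of its exonic length. Whether counting used strand is not given in the sources used here, so reads in that overlap are uncertain.

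Scrib encodes the scaffold that names the complex (chr15:75877588-75900214, minus strand). It had 132, 132 and 133 CPM in control and 113, 99.4 and 134 CPM in Rnf40ΔSC libraries. Rnf40ΔSC replicates 1 and 2 were below the control libraries, whereas replicate 3 was above them. The log2 fold change was -0.18 (95% interval -0.41 to 0.039, adjusted p = 0.21 by edgeR). Single libraries moved this value. Without Rnf40ΔSC replicate 3 it was -0.30 and passed (adjusted p = 0.0359 with edgeR). Without Rnf40ΔSC replicate 2 it was -0.091 (adjusted p = 0.61 with edgeR), and with Rnf40ΔSC replicates 1 and 2 both left out it was 0.024. It was also above 0, at 0.086, with total-count scaling.

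Dlg1, the gene of the membrane-associated guanylate kinase SAP97, lies at chr16:31663529-31873436 on the plus strand. It had 74.1, 79.1 and 75.4 CPM in control and 73.8, 81.2 and 74.9 CPM in Rnf40ΔSC libraries. The ranges of the groups nearly coincided. The log2 fold change was 0.0019, with a 95% interval of -0.25 to 0.25 that leaves room for a change of that size in either direction. With total-count scaling it was 0.27, outside that interval, and was not called.

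**Figure D2:**
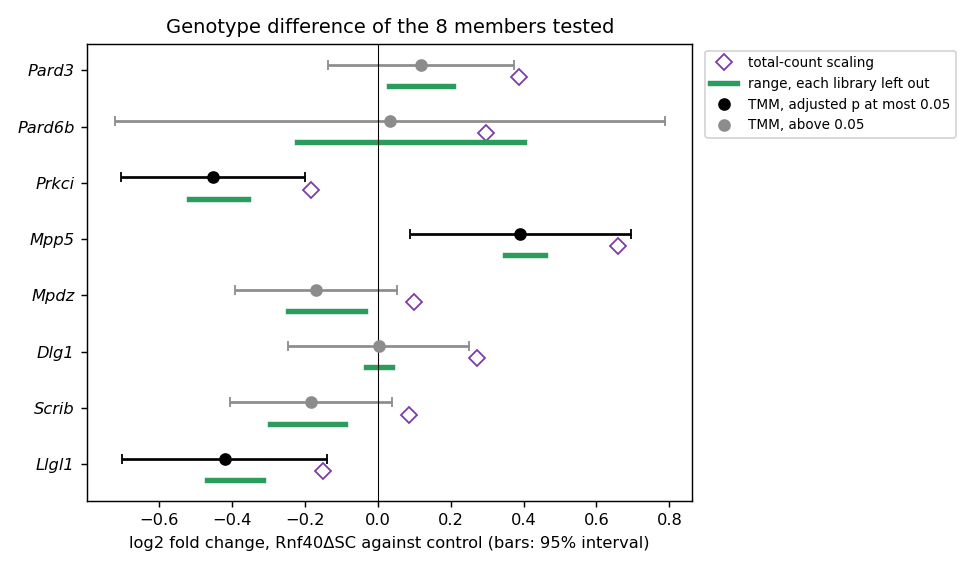
Log2 fold change (x axis, Rnf40ΔSC against control) of the 8 members tested. Circles and bars are edgeR estimates with 95% intervals after TMM scaling (black, adjusted p at most 0.05), diamonds the estimates with total-count scaling, and green lines the range over fits that each omit 1 library. Each diamond lies to the right of the circle of its gene, and for Scrib and Mpdz they cross 0.

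Libraries differed in composition as well as in genotype. The first principal component of the 500 most variable genes held 75.0% of the variance and separated the genotypes, while Rnf40ΔSC replicate 3 stood apart on the second (12.9%). The 5 skeletal muscle genes Acta1, Ckm, Myh4, Mylpf and Tnnt3 summed to 3359, 2459 and 1821 CPM in control and to 70.8, 165 and 2224 CPM in Rnf40ΔSC libraries, with Myh4 the highest in mean level in control and Acta1 in Rnf40ΔSC nerves. Rnf40ΔSC replicates 1 and 2 were thus low in muscle RNA and replicate 3 was at the level of the controls, and 0 of the 5 genes passed. Without replicates 1 and 2, an alternative chosen after these values were seen, log2 fold changes were -0.61 for Prkci (adjusted p = 0.00559 with edgeR), -0.38 for Llgl1 (adjusted p = 0.14) and 0.28 for Mpp5 (adjusted p = 0.36). A single Rnf40ΔSC library is left in that fit, so a lost call there may reflect the number of libraries. The part of muscle RNA in these results was not tested.

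Schwann cell markers moved with genotype. Sox10, a transcription factor of the lineage, had 496.5, 547 and 562 CPM in control and 326, 297.5 and 307 CPM in Rnf40ΔSC libraries. S100b, a calcium-binding protein, had 410.04, 473 and 448 CPM in control and 258, 254 and 208 CPM in Rnf40ΔSC libraries. The neuregulin receptor gene Erbb3 had 151.5, 173 and 168 CPM in control and 100.04, 102.5 and 123 CPM in Rnf40ΔSC libraries. For all 3 genes every Rnf40ΔSC library was below every control library, and each was called lower under all 14 alternatives, with log2 fold changes of -0.79 (SE 0.091), -0.89 (SE 0.098) and -0.60 (SE 0.11) by edgeR. They were detected in every library, as the label of the tissue requires.

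Markers of other cells of the nerve were lower too after TMM scaling. Perineurial and fibroblast genes (5 of 5 lower; highest mean level, Col3a1) summed to 39450, 38670 and 41820 CPM in control and to 30540, 29390 and 28900 CPM in Rnf40ΔSC libraries. Endothelial genes (3 of 5 lower; highest mean level, Cdh5) summed to 648, 589 and 671 CPM in control and 423, 429 and 511 CPM in Rnf40ΔSC libraries. In both lists the groups did not overlap. Macrophage genes (4 of 5 lower; highest mean level, Csf1r) summed to 275, 244 and 278 CPM in control and 177, 169 and 186 CPM in Rnf40ΔSC libraries. Pericyte and smooth muscle genes (3 of 5 lower; highest mean level, Pdgfrb) summed to 926, 675 and 766 CPM in control and 491, 503 and 610 CPM in Rnf40ΔSC libraries. Those sums did not overlap either. Of the adipocyte genes Adipoq, Plin1 and Cfd were lower, and Fabp4, the highest in mean level, and Lep were not called. The 5 summed to 1154, 841 and 1459 CPM in control and 906, 829 and 658 CPM in Rnf40ΔSC libraries, with overlap. These shifts depend on the scaling. With total counts in place of TMM, added after the data were seen, 0 of 5 endothelial, 2 of 5 perineurial and fibroblast, 2 of 5 macrophage, 1 of 5 pericyte and smooth muscle and 2 of 5 adipocyte genes were called lower by edgeR. The endothelial sums then overlapped, at 523 to 609 CPM in control and 451 to 565 CPM in Rnf40ΔSC libraries, and so did those of pericytes and smooth muscle, at 599 to 854 and 523 to 674.5 CPM. The perineurial and fibroblast sums and the macrophage sums stayed separate. The part of these shifts in the lower levels of Prkci and Llgl1 and the higher level of Mpp5 was not tested.

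Levels of different genes were compared per length, as CPM per kb of annotated exons. In control nerves the order of mean levels was Scrib (23.0), Prkci (17.3), Llgl1 (13.9), Mpdz (13.4), Dlg1 (8.51), Mpp5 (7.66), Pard3 (5.34), Pard6a (2.61), Pard6b (2.35) and Crb3 (0.175). Libraries of neighbours in this order overlapped for Llgl1 and Mpdz, for Pard3 and Pard6a and for Pard6a and Pard6b, and were separate for the other pairs. In control replicates 1 to 3 Pard6a had 4.61, 1.98 and 1.25 and Pard6b 3.63, 1.83 and 1.58. Replicate 1 thus raised both means, and in replicate 3 Pard6b lay above Pard6a. Scrib was the most abundant member per length in all 6 libraries. In Rnf40ΔSC nerves the order was Scrib (20.1), Prkci (12.6), Mpdz (11.8), Llgl1 (10.4), Mpp5 (10.1), Dlg1 (8.56), Pard3 (5.87), Pard6a (2.44), Pard6b (2.19) and Crb3 (0.180). The libraries of Prkci, Mpdz, Llgl1 and Mpp5 overlapped from neighbour to neighbour there, as did those of Pard6a and Pard6b. Exonic length is that of all annotated transcripts joined, and a gene that uses short isoforms is understated.

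**Figure D3:**
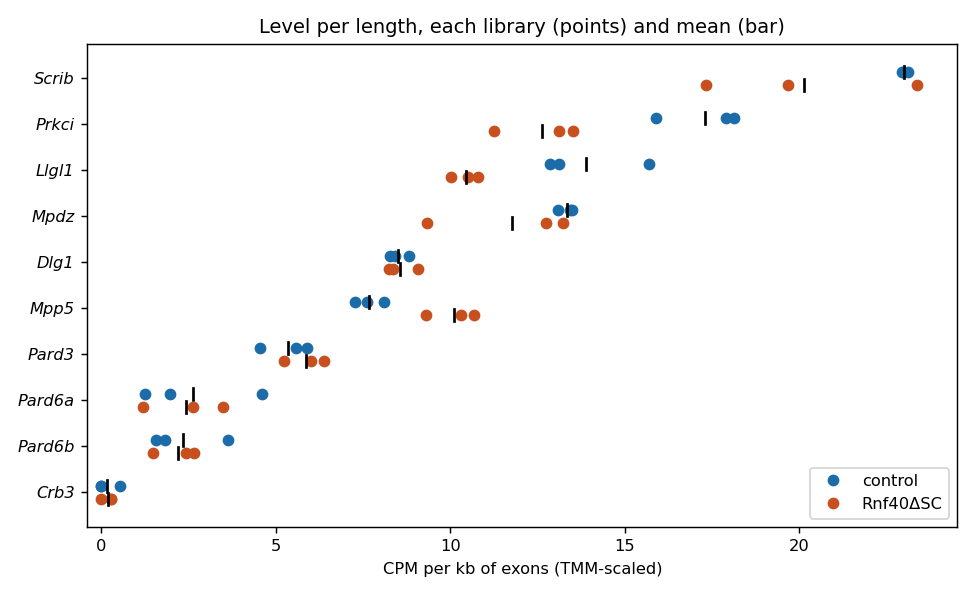
Level per length of the 10 members (x axis, CPM per kb of exons after TMM scaling) in control (blue) and Rnf40ΔSC (orange) libraries. Points are libraries and bars are means. Scrib lies highest and Crb3 lowest in both groups, and the control order of Dlg1 above Mpp5 is the opposite of the Rnf40ΔSC order.

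Paralogs were set against each other as shares of the level per length of their family. Single genes carried the kinase, LGL and MUPP1 families in control nerves. Prkci made up 97.9% ± 1.30 (SD, n = 3) of the level of Prkci and Prkcz. Llgl1 made up 96.2% ± 3.32 (SD, n = 3) of the LGL family with Llgl2, and Mpdz 94.3% ± 1.60 (SD, n = 3) of the family it forms with Inadl, the gene of PATJ. These shares were 97.9%, 96.8% and 93.5% in Rnf40ΔSC nerves.

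Members did not lead the PAR6 and MPP families. Pard6g, a paralog outside the 10 members, held 69.3% ± 16.7 (SD, n = 3) of the PAR6 level in control and 68.5% ± 3.48 (SD, n = 3) in Rnf40ΔSC nerves. Mpp6 held 74.8% ± 3.48 (SD, n = 3) of the level of Mpp2, Mpp3, Mpp5, Mpp6 and Mpp7 in control, and Mpp5 16.5% ± 1.86 (SD, n = 3). In Rnf40ΔSC nerves these shares were 78.4% ± 1.25 and 15.2% ± 1.55 (SD, n = 3). From raw counts, not divided by length, the control shares were 61.1% for Mpp6 and 26.0% for Mpp5. In the PAR3 family the shares were 64.4% ± 3.11 for Pard3 and 35.6% ± 3.11 for Pard3b in control (SD, n = 3), and 64.4% and 35.6% in Rnf40ΔSC nerves. The symbol Pard3b names 2 gene models, of which the longer was used.

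The share of Dlg1 among Dlg1 to Dlg4, which was singled out once its values had been seen, amounted to 35.7%, 35.0% and 35.0% in control and 43.9%, 41.8% and 46.3% in Rnf40ΔSC libraries. The groups did not overlap. The mean share was 8.78 percentage points higher in Rnf40ΔSC nerves, which is given as a description. An exact two-sided permutation test gave p = 0.1, the smallest value that 3 against 3 libraries allow, and so cannot decide on the difference. A share also moves with the other genes of the family. The level of Dlg1 itself had a log2 fold change of 0.0019 after TMM and 0.27 after total-count scaling. Dlg3 was called lower, as given with the other Scribble genes, and Dlg4 had a log2 fold change of -0.47 just short of the call (adjusted p = 0.0503 with edgeR, over a range of 0.0141 to 0.41). Dlg2 had at most 3 reads in a library.

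**Figure D4:**
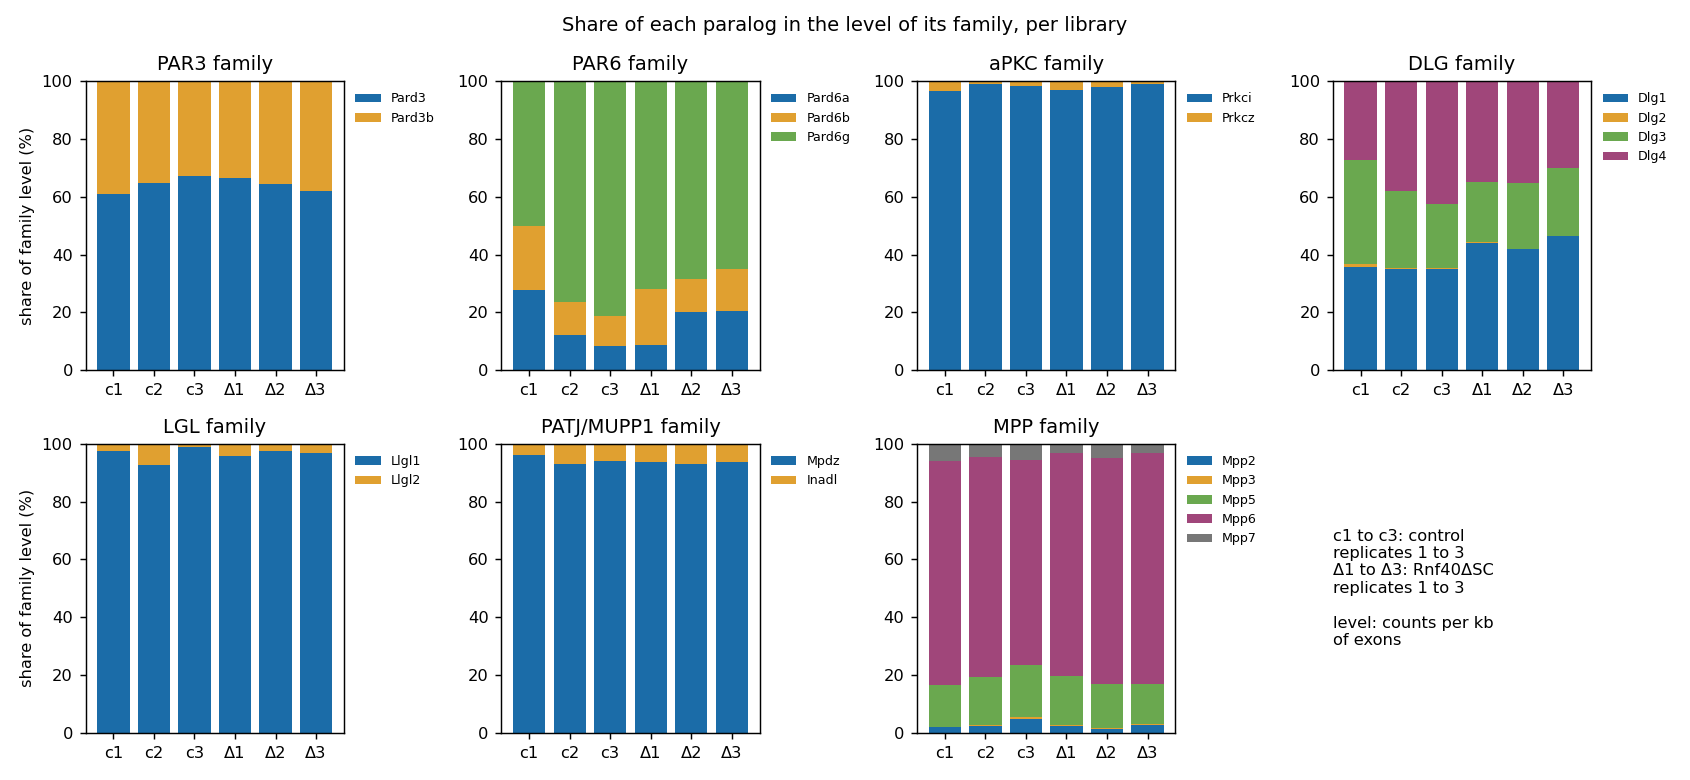
Share of each paralog in the level of its family (y axis, percent of counts per kb of exons) in control replicates (c1 to c3) and Rnf40ΔSC replicates (Δ1 to Δ3). Each stacked bar is 1 library. Prkci, Llgl1 and Mpdz fill most of their families, and the Dlg1 part is larger in Rnf40ΔSC libraries.

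Other polarity genes were taken from lists of PAR, Crumbs and Scribble complex genes, of binding partners and junction genes, and of planar polarity genes. Of 66 such genes in the count data, 58 were tested, and 12 were called higher and 13 lower in Rnf40ΔSC nerves by edgeR at an adjusted p of at most 0.05. Over all genes tested the shares were 15.4% and 16.2%, and no count of a list below was tested against these shares. The median log2 fold change of the 58 was -0.10. With total-count scaling 20 were called higher and 5 lower, and the directions below are relative to TMM scaling. The called genes named in the next paragraphs, F11r and Magi2 set aside, kept their direction with total-count scaling. Values of F11r and Magi2 with that scaling are not given. The paralogs Pard6g, Mpp7 and Inadl, which were not called, went from below 0 to above it with total-count scaling.

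Among 12 further PAR genes tested, 5 were higher and 1 lower, with a median log2 fold change of 0.20. The small GTPases Cdc42 and Rac1, which act on PAR6 and on the actin cytoskeleton, had log2 fold changes of 0.28 (SE 0.088) and 0.41 (SE 0.092). Ywhaz, a 14-3-3 protein of the PAR5 type, was at 0.45 (SE 0.092), and the PAR1 kinases Mark2 and Mark3 were at 0.45 (SE 0.12) and 0.47 (SE 0.11). Tiam1, an exchange factor for Rac that binds PAR3, was at -0.56 (SE 0.16). Calls of Rac1, Ywhaz, Mark2 and Mark3 held under all 14 alternatives. With total-count scaling these genes were at 0.67, 0.72, 0.72 and 0.74, in that order, and Cdc42 was at 0.55. Cdc42 did not pass without control replicate 1 (0.25) or 3 (0.26) or Rnf40ΔSC replicate 2 (0.20). With Rnf40ΔSC replicates 1 and 2 left out together it was at 0.12 (adjusted p = 0.46 with edgeR, over a range of 3.40e-06 to 0.46). Tiam1 did not pass without control replicate 1 (-0.49) or 2 (-0.55) or Rnf40ΔSC replicate 3 (-0.54), nor with total counts (-0.29).

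Of 9 further Crumbs complex genes tested, Mpp6 was higher and Amotl2 lower, and the median was -0.014. Mpp6, a paralog of Mpp5, had 115, 94.9 and 89.3 CPM in control and 140, 150 and 154 CPM in Rnf40ΔSC libraries. The groups did not overlap. Its log2 fold change was 0.59 (SE 0.11, adjusted p = 6.55e-05 by edgeR) and the call held under all 14 alternatives. Amotl2, an angiomotin that binds PATJ or MUPP1, was at -0.28 (SE 0.11) and lost its call in 9 of 14 alternatives, among them the fits without control replicate 2 (-0.27) or 3 (-0.25) or Rnf40ΔSC replicate 2 (-0.26) or 3 (-0.21). It was -0.013 with total-count scaling.

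Of 10 further Scribble complex genes tested, Lrrc7 was higher and Dlg3 and Cask were lower, with a median of -0.18. Lrrc7, a LAP protein related to Scribble, had 4.54 ± 1.19 CPM (SD, n = 3) in control and 11.7 ± 4.08 CPM (SD, n = 3) in Rnf40ΔSC nerves. Its log2 fold change was 1.40 (SE 0.38), on few reads, and did not pass without Rnf40ΔSC replicate 1 (1.07) or with replicates 1 and 2 both left out (0.97). Dlg3 was at -0.62 (SE 0.19) and Cask, a kinase-like scaffold, at -0.42 (SE 0.14). Dlg3 lost its call without control replicate 1 (-0.47) or Rnf40ΔSC replicate 1 (-0.53), and with Rnf40ΔSC replicates 1 and 2 both left out (-0.63). Cask lost it without control replicate 2 (-0.41) or 3 (-0.34) or Rnf40ΔSC replicate 3 (-0.28). With DESeq2 neither was called, at folds close to those of edgeR (-0.62 for Dlg3 and -0.40 for Cask). With total-count scaling neither was called, and the folds were smaller (-0.35 and -0.15).

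Of 18 binding partners and junction genes tested, 4 were higher and 9 lower, with a median log2 fold change of -0.33. Cldn19, a claudin of the autotypic junctions of myelinating Schwann cells, fell from 1992 ± 96.7 (SD, n = 3) to 515 ± 32.4 CPM (SD, n = 3), a log2 fold change of -1.95 (SE 0.083, adjusted p = 1.17e-20 by edgeR). Cdh1, the gene of E-cadherin, was at -0.64 (SE 0.096). The neurotrophin receptor gene Ngfr, whose product binds PAR3, was at -0.90 (SE 0.12). Jam3, which encodes a junctional adhesion molecule that binds PAR3, rose from 276 ± 47.4 (SD, n = 3) to 546 ± 25.5 CPM (SD, n = 3), a log2 fold change of 0.98 (SE 0.10, adjusted p = 9.02e-10 by edgeR). The scaffold gene Magi1 was at 0.62 (SE 0.14). These 5 calls held under all 14 alternatives. Paralogs of Jam3 and Magi1 went the other way: F11r was called lower at -0.55 (SE 0.18) and Magi2 at -0.48 (SE 0.11). Jam2 was at -0.19 (SE 0.13) and was not called. Values of these paralogs under the alternatives are not given. Cldn5, an endothelial claudin, was at -1.12 (SE 0.28), and the nectin genes Pvrl1 and Pvrl3 were at -0.73 (SE 0.19) and -0.71 (SE 0.19). With Rnf40ΔSC replicates 1 and 2 left out, which leaves 1 Rnf40ΔSC library, Cldn5 (-0.91) and Pvrl1 (-0.61) were not called. Pvrl3 lost its call with total counts (-0.44) and without Rnf40ΔSC replicate 1 (-0.56). The 3 Schwann cell markers and the sum of endothelial markers moved the same way as Cldn19 and Cldn5, and their part in these results was not tested.

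Of 9 planar polarity genes tested, Vangl1, which encodes a membrane protein of that pathway, was higher at 0.47 (SE 0.18, adjusted p = 0.0432 by edgeR), and 0 were lower. The median was -0.072. The Vangl1 call was lost in 7 of 14 alternatives, among them the fits without control replicate 1 (0.46) or 2 (0.34) or Rnf40ΔSC replicate 1 (0.49) or 2 (0.37). With both of those Rnf40ΔSC libraries left out it was at 0.27.

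**Figure D5:**
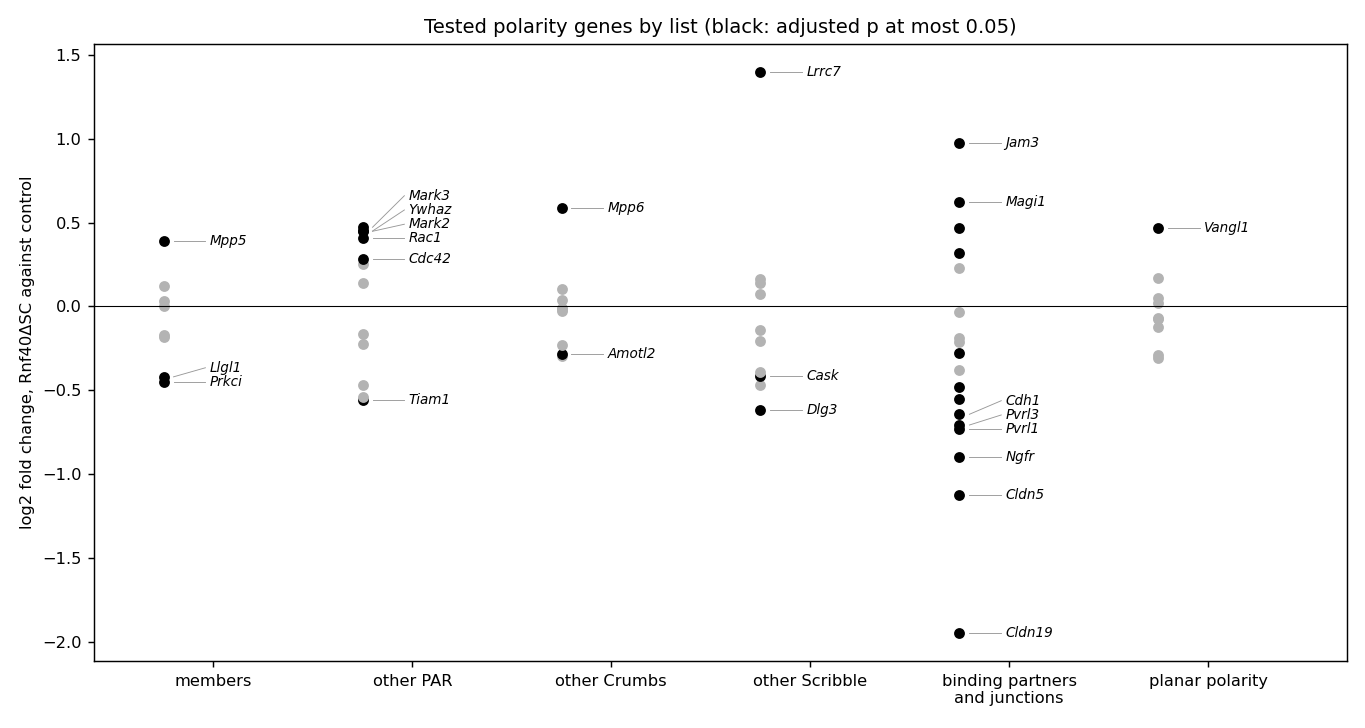
Log2 fold change (y axis, Rnf40ΔSC against control, TMM scaling) of the tested members and related polarity genes, by list. Each point is a gene, black where the adjusted p of edgeR was at most 0.05. Genes named for their calls carry labels, F11r and Magi2 excepted. The members lie between -0.45 and 0.39, and binding partners and junction genes spread from -1.95 to 0.98.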

How the data were processed

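Sciatic nerve libraries of 3 control and 3 Rnf40ΔSC mouse pools were compared, grouped by the sample labels. The authors aligned reads to mm9 with TopHat and deposited raw HTSeq read counts per gene, with no normalization. The submitters' processing notes also list Bowtie2 2.1.0 and mm10. Annotation and strand setting are not given in the sources used here. Labels and methods name different library kits, NEB Next Ultra and NEXTFLEX. Of the entries, 0 name no gene. Replicates differed by more than sampling noise (chi-square per degree of freedom 1.82 to 5.62).

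Counts were filtered with filterByExpr, scaled with TMM and fitted in edgeR 4.0.16 (R 4.3.3; robust quasi-likelihood test) on genotype alone, and p-values were adjusted by Benjamini-Hochberg over 11371 genes. CPM are counts divided by library size and TMM factor, times 1000000. The study used DESeq2, which served here (version 1.42.0) as an alternative. Log2 fold changes are those edgeR reports with its default prior count, taken up in place of coefficients without a prior once some of those were found to be infinite. Standard errors are the absolute log2 fold change divided by the root of the F statistic. For principal components, log2 CPM was computed with prior count 2. The base mean is the mean of counts scaled to a common library size. Exonic lengths and positions are from GENCODE vM1 (mm9).

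Members and lists were chosen with earlier results of these data known. Named were all members, Rnf40, paralogs, up to 8 called genes per related list by size of change, and the most abundant and undetected markers. F11r, Jam2 and Magi2 were added as paralogs of Jam3 and Magi1. Part of the Schwann cell marker list is not reported here, and the 3 genes given from it do not measure how far the list as a whole moved. Alternatives were RLE or total-count scaling, other filters (none, or 10 counts in every library), DESeq2 with and without a fold-change prior, a replicate block, each library left out and, for family shares, raw counts. Leaving out Rnf40ΔSC replicates 1 and 2 together, leaving out each library for the Dlg1 share and scaling the marker lists by total counts were added after the data were seen.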

Additional observations from a re-analysis of the deposited data

How the results depend on the processing

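Prkci kept its direction under all 14 alternatives and its call in 13, as did Rnf40. Total-count scaling moves all genes by 0.27 on the log2 scale relative to TMM. Log2 fold changes were then -0.27 for Rnf40, -0.18 for Prkci, -0.15 for Llgl1 and 0.39 for Pard3. They were 0.086 for Scrib, 0.098 for Mpdz, 0.66 for Mpp5, 0.27 for Dlg1 and 0.30 for Pard6b. Of the paralogs, Pard6g was at 0.11, Mpp7 at 0.24 and Inadl at 0.26, each above 0 in place of below it. Under that scaling 2 members were called higher and 0 lower, 20 related genes higher and 5 lower, and 3766 of all genes higher and 880 lower.

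With DESeq2, Mpp5 (0.40) and Llgl1 (-0.41) were not called, Pard6b was at -0.015 and Inadl at 0.0016. With its fold-change prior, the values were 0.38 for Mpp5, -0.40 for Llgl1, -0.011 for Pard6b and 0.0014 for Inadl. Either way 0 members were called higher, 1 lower and 8 related genes lower. Without a filter on low counts Mpp5 (0.40) was not called and 0 members were higher, with 1923 of 17139 genes called higher and 1852 lower. Pard6a and Crb3 then had adjusted p of 0.95 and 0.86 by edgeR. With at least 10 counts in every library Inadl was at 0.00066, and Pard6b had no value.

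Same-numbered libraries correlated at -0.095, -0.015 and -0.062 once each gene was centred within its group. With 3 libraries in each group, such values cannot settle whether replicate numbers paired the libraries. With the replicate block Mpp5 (0.39) was not called, 0 members were higher, Pard6b was at -0.029 and Inadl at 0.016, and calls over all genes were 1727 higher and 1837 lower.

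With 1 library omitted at a time, log2 fold changes ran from 0.35 to 0.46 for Mpp5, from -0.47 to -0.31 for Llgl1, from -0.30 to -0.091 for Scrib, from -0.032 to 0.039 for Dlg1, from 0.030 to 0.21 for Pard3, from -0.25 to -0.035 for Mpdz and from -0.22 to 0.40 for Pard6b. For paralogs they ran from -0.17 to 0.18 for Inadl, from -0.17 to 0.53 for Mpp2 and from -0.25 to 0.14 for Mpp7. Single values across 0 were -0.017, -0.0084 and -0.032 for Dlg1, -0.10, -0.22, -0.11 and -0.018 for Pard6b, 0.18, 0.0039 and 0.066 for Inadl, -0.11, -0.16, -0.00022 and -0.17 for Mpp2 and 0.11, 0.14 and 0.055 for Mpp7. Members called ranged from 0 to 1 higher and from 1 to 3 lower, the third being Scrib without Rnf40ΔSC replicate 3. Calls over all genes ran from 1293 to 1915 higher and from 1439 to 1992 lower, with the most in that fit. The Dlg1 share differed by 7.65 to 9.88 percentage points.

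With Rnf40ΔSC replicates 1 and 2 left out, chosen after the data were seen, 0 members were higher and 1 lower, 1119 of all genes were higher, and log2 fold changes were 0.28 for Mpp5, -0.38 for Llgl1, -0.047 for Pard3, -0.025 for Dlg1, 0.024 for Scrib and 0.0096 for Inadl. The remaining Rnf40ΔSC library is then assumed to vary like the controls. From raw counts, not divided by length, control shares were 67.7% for Pard3, 48.2% for Dlg1, 26.0% for Mpp5 and 61.1% for Mpp6. Apart from the effect of the scaling itself and of fewer libraries, the cause was not tested.

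Of the 20 related genes named for their calls, 10 kept their calls under every alternative that gave a value and 10 lost them under at least 1, and 0 reversed. Depth limits Pard6a, Pard6b and Crb3 most.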
